A study of Homo sapiens with 6 samples.

Results

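PABPC1, HDLBP and QARS encode 3 proteins that handle mRNA or feed its translation. Each mRNA had 1 listed 5-methylcytosine (m5C) site in bisulfite-treated RNA from polysome fractions of HEK293T, a cell line of human embryonic kidney origin. All rows whose gene name was PABPC1, HDLBP or QARS were taken, which gave 3 of 542 sites in 3 of 501 genes and 16 of 1222 listings. Lysate of wildtype cells, treated with cycloheximide during lysis and centrifugation, was separated on sucrose, and poly(A)-selected RNA of 6 fractions was profiled. From the top of the gradient down they held RNA free of ribosomes, RNA bound to a small or to a large subunit, monosomes with 1 ribosome, light polysomes with 2 to 5 and heavy polysomes with over 5. The study compared them to ask whether m5C in mRNA goes with translation. Each fraction was 1 library, so the values have no replicate check, and each test compares reads of those libraries and not the conditions. Between 172 and 233 sites were listed per library, with a median coverage of 68 to 75 reads and between 50416 and 764521 reads in all at listed sites. The lists hold called sites alone, so the cell line could not be checked against its marker genes.

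Bisulfite converts unmethylated cytosine, which is then read as T, while m5C is still read as C. The m5C level is the share of reads with C among reads with C or T, and the number of those reads is the coverage. A site was listed by the authors if it had at least 20 reads and a level of at least 10%, along with other filters. In mRNA, m5C is deposited chiefly by NSUN2 and NSUN6, enzymes that also methylate tRNA. Type II sites are followed by UCCA and all others are called Type I, many of which are followed by a G-rich triplet. An mRNA engaged by several ribosomes sediments in polysomes, whereas an mRNA waiting for initiation stays near the top of the gradient.

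The contexts of the HDLBP and QARS sites are shown because they place the sites in different types. Each is 21 nt of the transcript centred on the site, from GRCh37 in DNA letters, 5′ to 3′, with the methylated C and the 4 bases after it in capitals.
HDLBP: gcggccgctcCTCCAggcctg
QARS: cctcccgactCAGGGataccc
The HDLBP site (Type II) was at position 242168848 of chromosome 2, minus strand, in exon 28 of 28, in the 3′ UTR 168 nt after the stop codon. Its gene (ENSG00000115677) encodes vigilin, an RNA-binding protein built of many KH domains. The QARS site (Type I) was at position 49141833 of chromosome 3, minus strand, in exon 2 of 24, at the third base of codon 63 of 775. Its gene (ENSG00000172053) encodes glutaminyl-tRNA synthetase, which charges tRNA with glutamine. Of the 3 bases that follow the QARS site, 2 were G, and 63.4% of all 352 Type I sites had at least 2 G there.

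The PABPC1 site (Type II) was at position 101733698 of chromosome 8, minus strand, in exon 1 of 15, at the third base of codon 38 of 636. Its gene (ENSG00000070756) encodes the main cytoplasmic poly(A)-binding protein, which coats the poly(A) tail and contacts the initiation complex.

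No other site of these genes was listed, and no other annotated gene overlapped the positions. The 21 nt around each site had 1 exact match in the genome, its own. After C-to-T conversion, as the reads were aligned, the number of matches was 37 for PABPC1, 8 for HDLBP and 10 for QARS. Transcripts of 5 other genes held the converted PABPC1 window, among them the pseudogenes PABPC1P4 and PABPC1P10. With 50 nt on either side the converted sequence had 1 exact match each, and copies that differ there by a base were not searched.

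RNAfold predicted the site C to be unpaired in QARS, in an internal or multibranch loop, when 50 nt on either side were folded. It was paired with a G in both PABPC1 and HDLBP. At HDLBP this G lay 5 nt downstream, so the site C closed a hairpin loop made of the 4 bases UCCA. At PABPC1 the G lay 27 nt upstream, and the bases on both sides of the site were paired. Over all sites the predicted structure left 72.1% of 190 Type II sites and 38.1% of 352 Type I sites unpaired, so each of the 3 predictions was the less frequent state of its type. Between 4 (QARS) and 6 (PABPC1 and HDLBP) of the 11 bases centred on the site were unpaired, against a median of 7 for Type II and 4 for Type I sites.

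Over the libraries that listed each site, coverage differed most at PABPC1. The site had 751 reads in free RNA, 7805 with the small and 10685 with the large subunit, 2894 in monosomes, 1139 in light and 806 in heavy polysomes. It was above 86.6% of listed sites by coverage in the free library and above 93.5% to 97.9% in the others. Its share of the reads at listed sites was 0.0982% in the free library and 5.65% in the large subunit library. Both subunit libraries thus held the most PABPC1 reads, in number and by share. The share also depends on the other listed sites. The MT-RNR1 site alone had 343451 reads over the free and subunit libraries and 14433 over both polysome libraries. For all 3 sites, a difference in share between libraries is therefore not a measure of how much of the mRNA was there.

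At HDLBP the coverage was 157 reads in free RNA, 54 with the small and 271 with the large subunit, 174 in light and 209 in heavy polysomes. At QARS it was 129 reads with the small and 410 with the large subunit, 234 in monosomes, 172 in light and 92 in heavy polysomes. HDLBP was not listed in the monosome library and QARS was not listed in the free library.

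**Figure D1:**
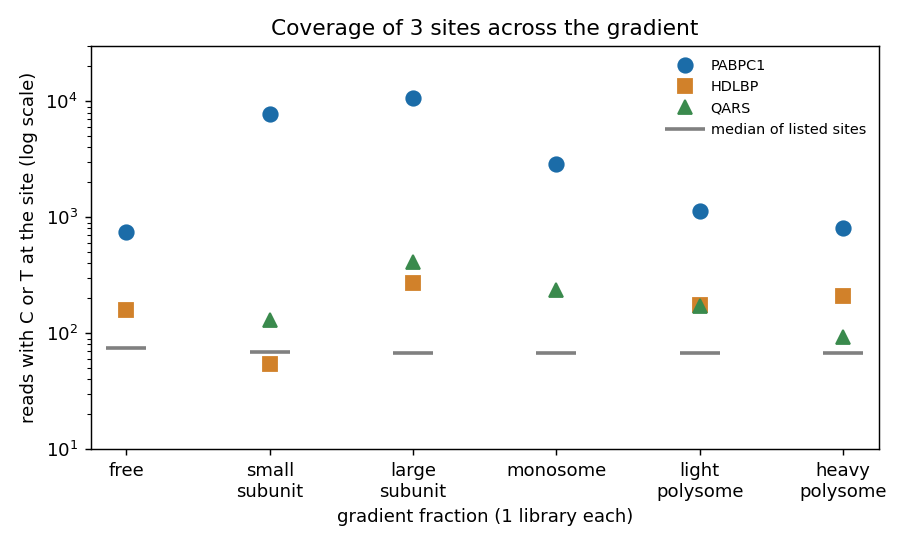
Reads with C or T (log scale) at the PABPC1, HDLBP and QARS sites in the 6 libraries, with a grey bar for the median over the sites listed in each library. PABPC1 lies between 751 and 10685 reads and above both other sites in every library, and a missing point means that the site was not listed.

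The share of reads at listed sites taken by QARS was 0.0342% with the small and 0.217% with the large subunit, 0.149% in monosomes, 0.227% in light and 0.182% in heavy polysomes, so it was lowest with the small subunit and had no steady direction after that. The HDLBP share was 0.0205% in free RNA, 0.0143% with the small and 0.143% with the large subunit, 0.229% in light and 0.415% in heavy polysomes. Both sites were also set against PABPC1 in the same library, whose own share was lower in polysomes (1.60% in heavy, and less in light) than with either subunit. For each 100 reads at PABPC1, QARS had 1.65 (exact 95% interval 1.38 to 1.97) with the small subunit, 3.84 (3.47 to 4.24) with the large subunit, 8.09 (7.05 to 9.24) in monosomes, 15.1 (12.8 to 17.7) in light and 11.4 (9.10 to 14.2) in heavy polysomes. HDLBP had 20.9 (17.5 to 24.9) in free RNA, 0.692 (0.519 to 0.904) with the small subunit, 2.54 (2.24 to 2.86) with the large subunit, 15.3 (12.9 to 17.9) in light and 25.9 (22.2 to 30.2) in heavy polysomes. Relative to PABPC1, both sites had fewer reads with the subunits than in polysomes, while by share of listed reads QARS in polysomes was close to its value with the large subunit. These ratios are a description of 1 library each, and a change in PABPC1 and a change in the other gene cannot be told apart from them.

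The m5C level of PABPC1 stayed near 20% in every fraction. It was 20.9% in free RNA (Wilson 95% interval 18.1% to 24.0%), 18.9% with the small subunit (18.1% to 19.8%), 19.7% with the large subunit (18.9% to 20.4%), 21.4% in monosomes (20.0% to 23.0%), 17.7% in light (15.6% to 20.1%) and 21.6% in heavy polysomes (18.9% to 24.6%). The highest value was in heavy and the lowest in light polysomes, 3.85 percentage points apart. Reads carry no molecular identifiers, so PCR copies could not be told from separate molecules. The intervals and tests for all sites treat each read as independent. Where copies were counted, the intervals may be too narrow and the p-values too small. Variation between replicate libraries is not covered either.

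HDLBP was methylated at a lower level, just above the calling minimum. It measured 10.8% in free RNA (6.87% to 16.7%), 14.8% with the small subunit (7.70% to 26.6%), 12.9% with the large subunit (9.43% to 17.4%), 12.6% in light (8.50% to 18.4%) and 13.4% in heavy polysomes (9.43% to 18.7%). The intervals overlapped throughout, and in all 5 listings the lower bound was below the 10% at which a site is listed. A lower value of HDLBP would not have been listed, so its differences are seen in part. Whether the site missed the monosome list by its level, its coverage or another filter cannot be told apart.

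QARS had the highest level of the 3 sites in each library that listed it, and its level was lower in polysomes. It was 62.8% with the small subunit (54.2% to 70.6%), 59.0% with the large subunit (54.2% to 63.7%), 60.7% in monosomes (54.3% to 66.7%), 44.8% in light (37.5% to 52.2%) and 38.0% in heavy polysomes (28.8% to 48.3%). The 3 lighter values lay close together, and both polysome intervals ended below all 3 lighter intervals. It was above 94.4% to 96.0% of all listed sites by level in the subunit and monosome libraries, above 90.3% in light and above 82.7% in heavy polysomes. Among listed Type I sites QARS ranked 2 of 121 by level with the small subunit, 8 of 155 with the large subunit, 2 of 112 in monosomes, 11 of 129 in light and 20 of 136 in heavy polysomes. Its lowest bound of 28.8% was well over the listing minimum, and its coverage in the free library is unknown.

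**Figure D2:**
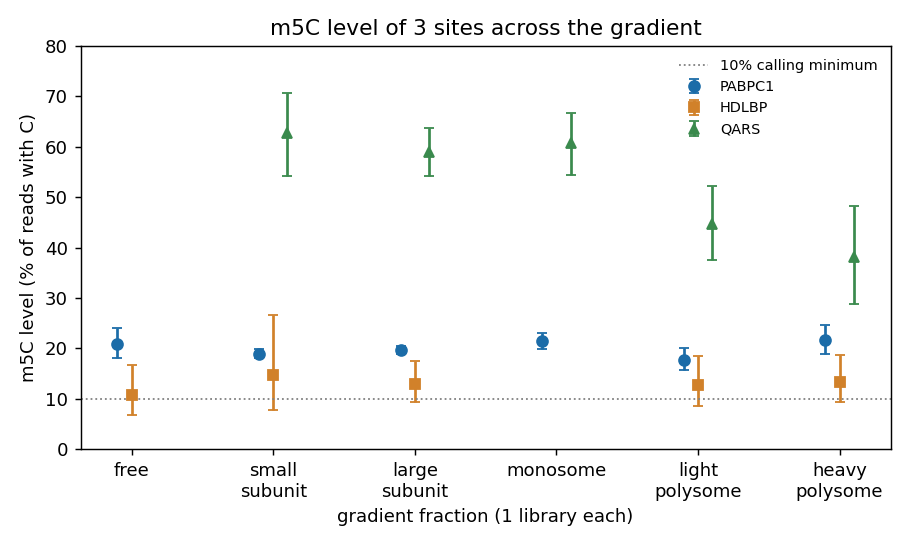
m5C level in percent (points) with Wilson 95% intervals (bars) at the PABPC1, HDLBP and QARS sites in the 6 libraries, and the 10% minimum for listing as a dotted line. QARS falls from 62.8%, 59.0% and 60.7% to 44.8% and 38.0% in polysomes, while PABPC1 stays between 17.7% and 21.6% and HDLBP between 10.8% and 14.8%.

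Each pair of libraries was compared with Fisher's exact test (two-sided) on the reads, and p-values were adjusted by Benjamini-Hochberg over all sites listed in both. Here the free, subunit and monosome libraries are called lighter. QARS was higher in each lighter library that listed it than in each polysome library, in 6 of 6 pairs. Against heavy polysomes the difference was 24.7 percentage points from the small subunit library (Newcombe 95% interval 11.4 to 36.9, exact adjusted p = 0.00389), where 21.2% of 85 sites were called. Against the large subunit library heavy polysomes were lower by 21.0 points (9.69 to 31.3, exact adjusted p = 0.00341), where 10.7% of 112 sites were called. Monosomes exceeded heavy polysomes by 22.6 points (10.6 to 33.7, exact adjusted p = 0.00315), where 20% of 90 sites were called.

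Against light polysomes QARS differed by 18.0 points from the small subunit library (6.64 to 28.7, Fisher's exact test, adjusted p = 0.0315), where 8.57% of 105 sites were called. The difference was 14.3 points from the large subunit library (5.37 to 22.9, exact adjusted p = 0.0219), where 9.45% of 127 sites were called. It was 15.9 points from the monosome library (6.09 to 25.3, exact adjusted p = 0.0233), where 8.57% of 105 sites were called. The 6 pairs share both polysome libraries and are not independent. Between lighter libraries QARS differed by -1.66 to 3.77 points, and 0 of 3 pairs passed the test, adjusted or not. Light polysomes exceeded heavy polysomes by 6.72 points (-5.79 to 18.6, exact adjusted p = 0.724), where 3.79% of 132 sites were called, so the order of the polysome fractions was not resolved.

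At PABPC1, 0 of 15 pairs of libraries passed Fisher's exact test after adjustment, and 4 had an unadjusted p under 0.05. Free and heavy polysome libraries differed by -0.683 points (-4.74 to 3.39, exact adjusted p = 0.988), where 15.7% of 51 sites were called. Monosome and heavy polysome libraries differed by -0.164 points (-3.47 to 2.94, exact adjusted p = 1). The smallest adjusted p, 0.0879, was for the small subunit against the monosome library, at -2.47 points (-4.23 to -0.770), where 4.5% of 111 sites were called. Monosomes minus light polysomes gave 3.69 points (0.945 to 6.30, exact adjusted p = 0.0962), and light minus heavy polysomes gave -3.85 points (-7.50 to -0.288, exact adjusted p = 0.307). The intervals of the 15 PABPC1 pairs reached from -7.50 to 6.88 points. Over all sites, the free library was called as different from the small subunit library at 2.2% of sites, from the large subunit library at 4.29%, from monosomes at 9.46% and from light polysomes at 11.1%. The large subunit library was called as different from the small subunit library at 2.65% and from monosomes at 4% of sites.

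At HDLBP, 0 of 10 pairs passed Fisher's exact test and 0 had an unadjusted p under 0.05. Free and heavy polysome libraries differed by -2.57 points (-9.17 to 4.48, exact adjusted p = 0.917). The 10 differences were between -3.99 and 2.17 points, and their intervals reached from -16.4 to 14.7 points. The small subunit library, with 54 reads, set both ends.

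**Figure D3:**
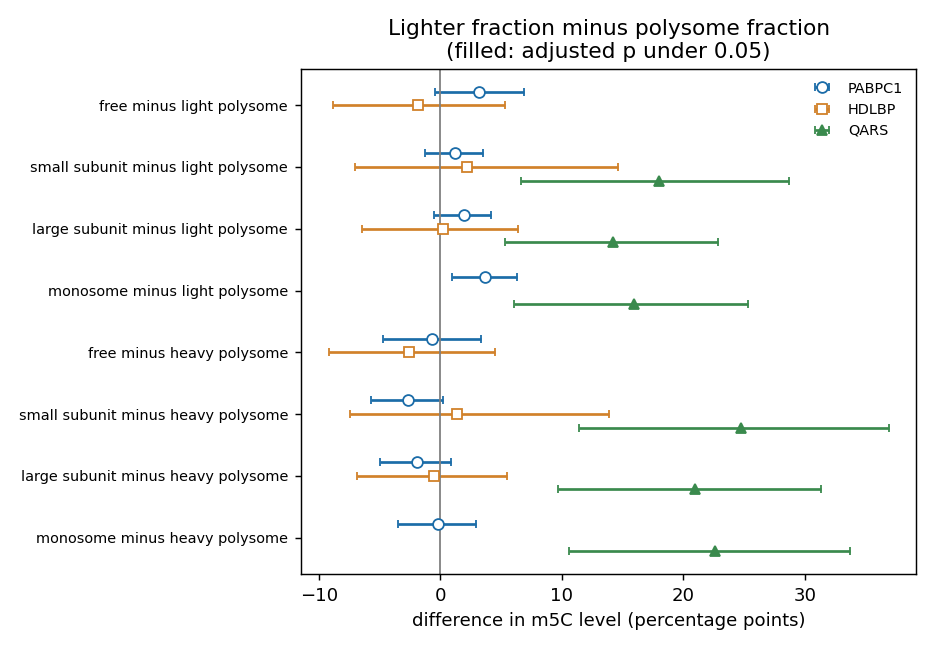
Difference in m5C level (percentage points, lighter minus polysome library) with Newcombe 95% intervals for the 8 pairs of a lighter and a polysome library. Filled points passed Fisher's exact test after adjustment, which were the 6 QARS pairs (14.3 to 24.7 points), and open points did not.

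Reads were also summed before polysomes (free RNA and both subunits, where listed) and in polysomes (light and heavy). The QARS level was 59.9% of 539 reads before polysomes, from the subunit libraries since QARS was not listed in free RNA, and 42.4% of 264 reads in polysomes, a difference of 17.5 points (10.2 to 24.6, Fisher's exact test, adjusted p = 6.41e-05). It was the 8th highest difference of the 178 sites tested, of which 14.6% were called and 11.2% were called as higher before polysomes. Only sites listed on both sides were tested, so a site that fell under 10% in polysomes is missing. A site just above 10% could not show a large fall, so the rank in points depends on the level too. Adding the monosome reads to the polysome side narrowed it to 8.92 points (exact adjusted p = 0.0444). PABPC1 was at 19.4% of 19241 reads and 19.3% of 1945 reads, a difference of 0.0956 points (-1.80 to 1.88, exact adjusted p = 1). HDLBP was at 12.4% of 482 reads and 13.1% of 383 reads, a difference of -0.607 points (-5.20 to 3.82, exact adjusted p = 1). The QARS interval lay above both others, though a difference between sites was not itself tested. A fall of 17.5 points from 19.4% or 12.4% would end under the 10% listing minimum. PABPC1 and HDLBP could therefore not have shown a fall of that size and stayed listed, and the contrast in points depends on the starting level.

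**Figure D4:**
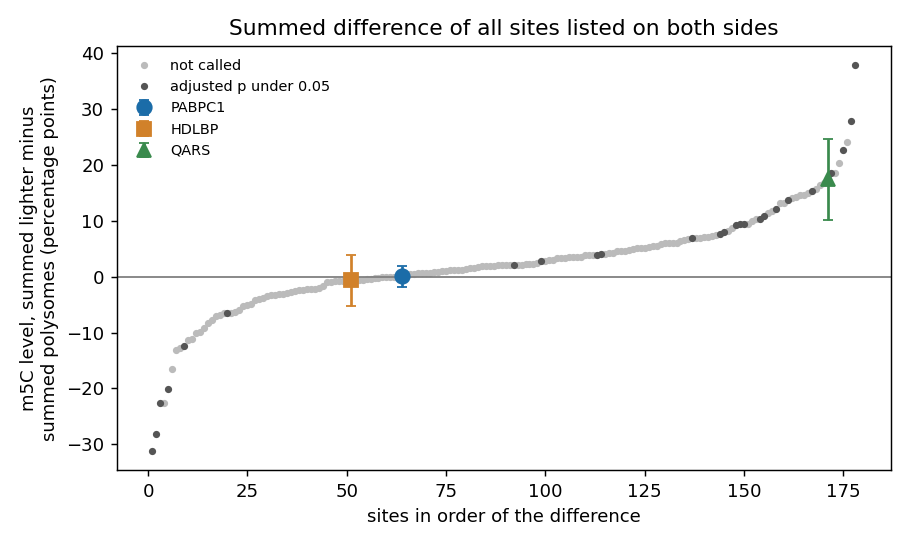
Difference in m5C level (percentage points, reads summed before polysomes minus reads summed in polysomes) of the 178 sites listed on both sides, in rising order, with dark dots for sites past the test. QARS (17.5 points) is the 8th highest, and PABPC1 (0.0956) and HDLBP (-0.607) lie near 0, with Newcombe 95% intervals as bars.

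The change of level along the gradient was tested with a Cochran-Armitage statistic, two-sided, and a permutation test of the reads. It covered 79 sites listed in at least 5 libraries, of which 31.6% were called and 24.1% were called as falling. QARS, without the free library, fell by 6.08 percentage points per step towards heavy polysomes (permutation p = 2e-05, adjusted p = 0.000144). The pairs, the summed difference and the trend of QARS use reads of the same libraries, so they are not separate lines of support. PABPC1 had a slope of 0.357 points per step (adjusted p = 0.325 by permutation) and HDLBP of 0.311 (adjusted p = 0.758 by permutation), and neither passed the test. The fall of QARS was not even along the gradient, since the 3 lighter libraries lay within 3.77 points of each other and the largest step came between monosomes and light polysomes.

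Genes of the same functions were looked up by symbol, with later aliases and the members included. A site was listed for 3 of 60 aminoacyl-tRNA synthetase symbols and 1 of 13 poly(A)-binding protein symbols. It was listed for 3 of 68 translation factor symbols and 3 of 39 KH-domain symbols. The whole series listed 501 genes, and their share of all expressed genes is not known, so these counts are not read as few or many. Of the aminoacyl-tRNA synthetases, QARS, HARS and IARS had 1 site each. HARS, the histidyl enzyme, was listed in 3 libraries at 12.2% to 15.6%, with 32 to 65 reads, and in no polysome library. IARS, the isoleucyl enzyme, was listed in 3 libraries at 11.9% to 16.3%, and its summed difference was 1.28 points (-8.63 to 10.6, Fisher's exact test, adjusted p = 1). With summed reads 1 of 2 synthetase sites was called, QARS itself, against 14.6% of all 178 sites. No poly(A)-binding protein gene other than PABPC1 was listed.

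Of the translation factor genes, EIF2S3, EIF4B and ETF1 had 1 site each. All 3 were tested with summed reads, and 0 passed Fisher's exact test, adjusted or not. Over all 178 sites 14.6% were called and 34 had an unadjusted p under 0.05, so few or none of 3 would be called at that share. EIF4B, an initiation factor that aids the helicase eIF4A, had its highest level of 17.1% in the free library and 11.5% in the light polysome library. Its trend over 5 libraries was -0.900 points per step (adjusted p = 0.0588 by permutation, unadjusted p = 0.0201). EIF4B was not listed in heavy polysomes, where a level under 10% would not have been listed. EIF2S3, a subunit of the factor that brings initiator tRNA, was listed at 10.0% to 13.1% in all 6 libraries. ETF1, the stop codon release factor, was listed at 10.7% to 12.9% in 3. Both lay just above the 10% listing minimum, so lower levels would not have been listed. Of the KH-domain genes beside HDLBP, RPS3, a protein of the small subunit, was listed at 10.9% to 11.1% in 4 libraries with 29370 to 114888 reads. RPS3 was listed in no polysome library, and a level under 10% there would not have been listed. Among these genes, 1 more was listed in 1 library. The QARS level (38.0% to 62.8%) was above that of every other site of these lists in each library that listed it.

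The sites whose levels lay nearest to each member were ranked by the root mean square difference over the libraries that listed the member. For PABPC1 they were TARBP2 (3.70 points), NVL (4.82) and CINP (4.90), out of 30 sites listed in the same 6 libraries. For HDLBP they were NT5DC2 (1.52 points), RPS2 (2.23) and DHRS7 (2.27), out of 32 sites over 5 libraries. For QARS they were RPSAP15 (9.01 points), TRAF7 (9.29) and SCMH1 (10.2), out of 59 sites over 5 libraries. RPSAP15 is a pseudogene of RPSA, so the assignment of its reads is uncertain. These ranks describe the same libraries with no test.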

How the data were processed

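Per the labels, the study's methods and the submitters' processing notes, reads were trimmed by the authors (Cutadapt 1.13, Trimmomatic 0.36), mapped to converted GRCh37 with Ensembl 75 annotation by HISAT2, and the rest mapped to the transcriptome by Bowtie2 2.2.9. Deposited coverage values are counts of reads with C or T, unscaled. The deposited m5C level is the fraction of those reads with C. The p-value deposited by the authors, from a binomial test against conversion of the gene, was not used in tests here. Listed sites had at least 20 reads, at least 3 reads with C at base quality 30 or more, a binomial p under 0.001, a level of at least 10% and passed filters for unconverted reads, signal ratio and conversion-resistant genes. A site missing from a list failed at least 1 of these filters, and which is not given, nor whether reads were counted before the filter on unconverted reads.

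Multiplying level and coverage gave the C reads, which lay within 0.01 of a whole number at all 1222 listings. Sites were placed on GENCODE 44 lifted to GRCh37 (canonical transcripts first), the reference base was C at all 542, and windows were read from that genome and folded with RNAfold 2.7.2 at default settings. All tests were run over every site and the rows of PABPC1, HDLBP and QARS are given. The trend used 100000 resamples of C reads among libraries at fixed coverage, with scores 1 to 6. Related genes came from lists of translation and RNA-binding genes, and the 3 nearest sites were named for members listed in at least 4 libraries, while genes of the lists were named if listed in at least 2. The members and lists were chosen with earlier results of these data known. Tests were checked on simulated reads, drawn independently and without the listing filter. That check therefore does not cover PCR copies or sites missing from a list. Software was matplotlib 3.10.9, pandas 2.3.3, scipy 1.17.1, numpy 2.4.6 and Python 3.11.15. Alternatives were a 50-read minimum, a score test, adjustment over all 15 pairs, other sums and scores, and leaving out each library.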

Additional observations from a re-analysis of the deposited data

How the results depend on the processing

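At QARS, 47 alternatives for the pairwise differences, the summed difference and the trend had a test, and each kept direction and side of the threshold. Only 12 of them changed the value, since the rest used the same QARS reads (another test or adjustment, the 50-read minimum, or leaving out free RNA, where QARS was not listed). The unweighted mean of levels, 19.5 points, had no test. Leaving out 1 library at a time gave a summed difference of 15.2 to 21.9 points and a slope of -6.92 to -5.08 points per step, and a minimum of 50 reads removed no listing of the 3 sites.

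At the other sites, 0 tested alternatives passed the threshold, and 6 changed the sign of a value near 0. The summed difference of PABPC1 was -1.16 points with monosomes added to polysomes and between -2.16 and 1.69 without 1 library. That of HDLBP was 0.176 with the free library left out and monosomes added to the lighter side, an alternative chosen after seeing the data, and between -1.21 and 0.176 without 1 library. The HDLBP slope was -0.0683 to 0.408 points per step without 1 library. PABPC1 slopes were 0.0933 to 0.682, the highest without light polysomes (permutation test, adjusted p = 0.0506). Without heavy polysomes, sites called over all sites fell from 26 to 13 (summed) and from 25 to 12 (trend). No paired analysis was possible because each fraction was 1 library. HDLBP rested on 54 to 271 reads per library, and the size of difference detectable there was not tested.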
